A study of Homo sapiens with 6 samples.

Results

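Claudins and their partners close the gap between neighbouring epithelial cells. The genes described here are CLDN1, CLDN2, CLDN3, CLDN4, CLDN7, CLDN12, OCLN, TJP1 and F11R, which are 6 claudins, the membrane proteins occludin and JAM-A, and the scaffold ZO-1. They were taken as a named set of 9 genes, with all probe sets annotated to them and to no other gene. The set was chosen with earlier results of these data known. The annotation gave 15 such probe sets for 8 of the 9 genes, of 54613 probe sets and 19775 genes on the array. A further probe set, annotated to CLDN12 and PTTG1IP2 together, was not used. No probe set was annotated to F11R, and F11R was not analysed here.

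The arrays carried RNA of HT29, a line of human colon adenocarcinoma cells. The resistant cells were HT29 cells selected stepwise until they were resistant to 10 μM methotrexate (MTX), an antifolate drug, and grown in medium lacking glycine, hypoxanthine and thymidine with dialyzed serum. They were set against HT29 sensitive cells grown in Ham's F12 with undialyzed serum, and medium, drug selection and resistance cannot be told apart. Each group had 3 arrays, described as triplicates of 1 resistant and 1 sensitive population. Whether the triplicates were separate cultures is not stated in the sources used here, so the p-values measure only how far these samples spread, and that spread may be technical.

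A tight junction is a belt of claudin strands near the apical edge of an epithelial cell, where claudins of adjoining cells meet and set which ions and solutes pass between the cells. Claudins 1, 3, 4 and 7 are known mainly as sealing claudins, whereas claudin-2 forms a pore for small cations and water and is typical of leaky epithelia. Occludin and JAM-A lie in the same membrane belt, and ZO-1, encoded by TJP1, binds the tails of claudins and occludin and ties them to actin. In the colon these proteins keep luminal contents out of the tissue.

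The bases before the annotated start of the genes that differed most in opposite directions, CLDN2 and CLDN1, and of CLDN7 are shown because the 3 genes belong to 1 family and their start regions differ in composition. They are the 250 bases before a start in RefSeq on GRCh38.p14, 5′ to 3′ along the gene's strand. All 8 measured genes had a window in that table, 14 windows in all. Capitals mark CACCTG, the E-box bound by SNAI and ZEB repressors, and GGGCGG, the GC box bound by SP factors, on either strand. The CLDN2 windows are chrX:106899914-106900163 and chrX:106918110-106918359 (plus strand), the CLDN1 window is chr3:190322447-190322696 (minus strand) and the CLDN7 window, before the second of 2 annotated starts, is chr17:7262479-7262728 (minus strand).
CLDN2 start 1: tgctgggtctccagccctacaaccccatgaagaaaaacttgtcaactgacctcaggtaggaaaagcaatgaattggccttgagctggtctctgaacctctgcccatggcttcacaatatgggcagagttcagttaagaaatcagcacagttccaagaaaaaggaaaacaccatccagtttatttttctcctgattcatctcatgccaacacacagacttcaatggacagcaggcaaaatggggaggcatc
CLDN2 start 2: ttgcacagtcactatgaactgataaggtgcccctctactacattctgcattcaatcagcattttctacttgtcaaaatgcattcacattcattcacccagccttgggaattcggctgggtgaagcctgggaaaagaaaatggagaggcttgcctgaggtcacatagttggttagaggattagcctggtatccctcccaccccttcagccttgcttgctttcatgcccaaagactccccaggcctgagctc
CLDN1: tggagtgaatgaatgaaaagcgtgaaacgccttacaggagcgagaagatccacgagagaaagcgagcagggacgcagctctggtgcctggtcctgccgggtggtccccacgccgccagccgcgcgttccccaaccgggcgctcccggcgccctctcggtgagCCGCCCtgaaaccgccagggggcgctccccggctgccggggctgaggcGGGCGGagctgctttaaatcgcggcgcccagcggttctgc
CLDN7 start 2: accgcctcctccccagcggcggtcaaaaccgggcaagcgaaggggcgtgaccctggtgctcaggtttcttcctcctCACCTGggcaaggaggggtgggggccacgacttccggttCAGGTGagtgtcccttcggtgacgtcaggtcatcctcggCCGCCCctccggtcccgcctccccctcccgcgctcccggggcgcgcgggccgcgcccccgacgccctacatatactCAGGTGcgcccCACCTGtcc

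The 2 CLDN2 windows held 0 and 1 CpG and were 46% and 48.8% GC, below the medians of 11 CpG and 58% GC over the 35116 windows of the table. The CLDN1 window held 28 CpG at 68.8% GC, and the CLDN7 window 25 CpG at 71.2% GC. The window before the first CLDN7 start, not printed, held 9 CpG at 60.4% GC, so the 2 CLDN7 windows differ as well. Among the other genes, the 4 TJP1 windows held 26, 27, 19 and 2 CpG, the last at 34.8% GC. The CLDN3 window held 19 CpG at 71.6% GC, and the CLDN4 window 4 CpG at 58.8% GC. CLDN12 held 12 CpG at 54.4% GC, and the OCLN windows held 24 and 20 CpG. Whether composition goes with the change of a gene was not tested. The E-box letters occurred 4 times in the printed CLDN7 window and not in the other CLDN7 window or in those of CLDN1 or CLDN2. Over the 14 windows, 4 held the E-box letters, against 17.5% of all windows, and 8 held the GC box letters, against 42.6%. Neither AACNNGTT, the core bound by grainyhead factors, nor TATAAA was found in any of the 14 windows, against 3% and 10.7% of all windows. These matches describe letters in these windows and nothing about binding.

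Signals are given in units of the median of the same array (scaled signals), and levels are not compared between probe sets. In resistant cells CLDN2 was higher, and CLDN1, CLDN7 and TJP1 were lower, than in sensitive cells. CLDN3, CLDN4, CLDN12 and OCLN did not pass the test. Of the 14 tested probe sets of these genes, 1 was higher, 5 were lower and 8 did not pass at an adjusted p under 0.05 in limma. Among all 26833 probe sets tested, 9.52% were higher and 19.5% were lower, which is 2554 and 5237. Quantile normalization gave 4189 and 4324, and division by the median of bright probe sets, those averaging a scaled signal of 1 or more, gave 3878 and 4668. By gene, read from the brightest probe set, 1 of 8 was higher and 3 of 8 were lower, against 11.9% and 21.4% of 11835 genes. The median log2 fold change was -0.25 over the 8 genes and -0.10 over all genes tested. None of the 8 reached a 3-fold change as well, which 4.05% of genes did in either direction.

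**Figure D1:**
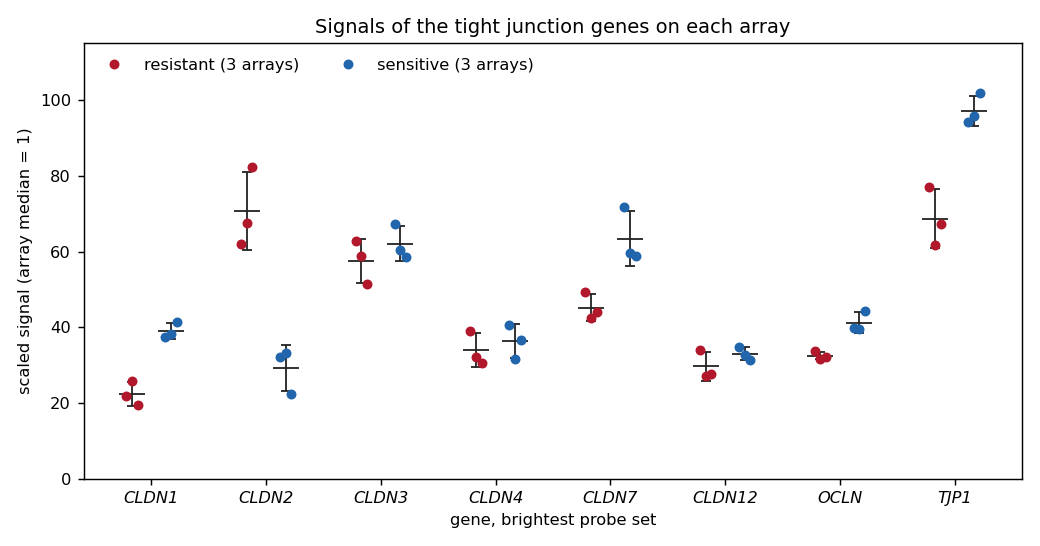
Scaled signal (array median = 1) of the brightest probe set of each of the 8 measured genes, with resistant arrays in red to the left of sensitive arrays in blue. Points are single arrays, and bars are the mean and SD of 3 arrays. The groups do not overlap for CLDN1, CLDN2, CLDN7, OCLN and TJP1, and overlap for CLDN3, CLDN4 and CLDN12.

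Among the claudins of the set, the pore-forming CLDN2 was higher. Of the sealing claudins, CLDN1 and CLDN7 were lower, and CLDN3 and CLDN4 did not pass. CLDN2, on chromosome X, had scaled signals of 62.1, 67.6 and 82.3 on the resistant arrays, against 32.0, 33.2 and 22.3 on the sensitive arrays. All 3 resistant arrays lay above all 3 sensitive arrays. The means were 70.7 ± 10.4 in resistant cells and 29.2 ± 5.99 in sensitive cells (SD, 3 arrays each). The level was 2.44-fold higher in resistant cells, with a 95% interval of 1.95 to 3.07 (log2 fold change 1.29, SE 0.16, adjusted p = 2.3e-06). CLDN2 had 1 probe set, so no second probe set bears on this value. Each value was computed again under 16 alternatives, which changed the scaling, the floor, the filter or the test, added a replicate term or left out 1 array. The call was lost in the methods' t-test (the study's own kind of test, run on the same log2 values) with unequal variances (adjusted p = 0.096). The remaining alternatives kept it, and all values lay between 1.11 and 1.47.

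CLDN1, a sealing claudin on chromosome 3, was lower on both of its probe sets. The brighter one gave 21.8, 25.8 and 19.4 on the resistant arrays, against 37.3, 38.2 and 41.4 on the sensitive arrays. The second gave 5.41, 4.49 and 4.64 on the resistant arrays, against 11.1, 13.1 and 12.9 on the sensitive arrays. The groups did not overlap on either. On the brighter probe set the resistant level was 57.0% of the sensitive level (log2 fold change -0.81, SE 0.15, adjusted p = 0.00029), and on the second it was 39.2% (-1.35, SE 0.18, adjusted p = 4.5e-06). The 95% intervals, -1.12 to -0.50 and -1.71 to -0.99, overlapped in part. The brighter probe set lost its call in the t-test with unequal variances (adjusted p = 0.12), whereas the second kept it under all 16 alternatives.

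CLDN7, a claudin that binds EPCAM and lies on chromosome 17, had scaled signals of 49.2, 42.4 and 44.1 on the resistant arrays, against 71.7, 59.6 and 58.8 on the sensitive arrays. The highest resistant array stayed below the lowest sensitive array. The resistant level was 71.6% of the sensitive level (log2 fold change -0.48, SE 0.13, 95% interval -0.76 to -0.21, adjusted p = 0.0089). Sensitive replicate 1 was the highest array, and without it the value was -0.39 and did not pass (adjusted p = 0.077). The call was also lost without limma's mean-variance trend (adjusted p = 0.065) and in both t-tests (0.076 and 0.13), and after quantile normalization the value shrank to -0.29 with an adjusted p of 0.016.

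The remaining claudins did not pass in the main test, and their arrays overlapped between the groups. CLDN3 and CLDN4, sealing claudins that lie next to each other on chromosome 7, did not pass on any tested probe set. CLDN3 gave 62.7, 58.7 and 51.3 on the resistant arrays, against 67.3, 60.4 and 58.5 on the sensitive arrays (log2 fold change -0.11, 95% interval -0.38 to 0.16, adjusted p = 0.56). Its other probe set gave 64.1, 64.5 and 49.4 on the resistant arrays, against 49.3, 43.9 and 59.0 on the sensitive arrays, a value of the opposite sign (0.23, 95% interval -0.07 to 0.53, adjusted p = 0.26). After quantile normalization that probe set was 0.41 higher on the log2 scale and passed (adjusted p = 0.037). The arrays of the groups overlapped on both CLDN3 probe sets.

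CLDN4 gave 39.0, 32.2 and 30.6 on the resistant arrays, against 40.7, 31.7 and 36.6 on the sensitive arrays (log2 fold change -0.10, 95% interval -0.41 to 0.21, adjusted p = 0.67). A second CLDN4 probe set was below the filter, a mean scaled signal of 1, and was not tested. CLDN12, a claudin linked to calcium passage between intestinal cells and also on chromosome 7, gave 34.1, 27.2 and 27.7 on the resistant arrays, against 34.8, 32.7 and 31.3 on the sensitive arrays (log2 fold change -0.16, 95% interval -0.46 to 0.14, adjusted p = 0.45). For both genes the arrays overlapped. The intervals leave room for decreases of up to 0.41 and 0.46 on the log2 scale and for increases of up to 0.21 and 0.14, so equal levels were not shown. The signs of CLDN4, CLDN12 and the brighter CLDN3 probe set turned positive after quantile normalization (0.09, 0.03 and 0.08).

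TJP1, on chromosome 15, encodes the scaffold ZO-1 and was lower on both probe sets. The brighter one gave 77.0, 61.6 and 67.4 on the resistant arrays, against 94.1, 95.8 and 102 on the sensitive arrays. The other gave 11.6, 7.73 and 8.65 on the resistant arrays, against 14.7, 16.2 and 15.1 on the sensitive arrays. Neither showed any overlap of the groups. The resistant level was 70.5% of the sensitive level on the brighter probe set (log2 fold change -0.51, SE 0.12, adjusted p = 0.0032) and 59.9% on the other (-0.74, SE 0.18, adjusted p = 0.0031). The brighter probe set lost its call without the variance trend (adjusted p = 0.052) and in both t-tests (0.057 and 0.14), and the other lost it in both t-tests (0.08 and 0.18). Quantile normalization shrank the value of the brighter probe set to -0.32 (adjusted p = 0.0073).

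OCLN, on chromosome 5, encodes occludin and was measured by 4 probe sets that did not run one way. The brightest gave 33.6, 31.7 and 32.2 on the resistant arrays, against 39.8, 39.6 and 44.4 on the sensitive arrays. These groups did not overlap, but the change did not pass (log2 fold change -0.34, SE 0.14, 95% interval -0.62 to -0.06, adjusted p = 0.064). It passed without resistant replicate 1 (-0.37, adjusted p = 0.031), with the replicate term in limma (adjusted p = 0.024) and in the t-test with equal variances (adjusted p = 0.049). The other 3 probe sets had values of -0.32, 0.13 and 0.33 with adjusted p of 0.23, 0.68 and 0.44, and overlapping arrays. The mean of all 4 was -0.05 (adjusted p = 0.83). OCLN shares sequence with the transcribed copy OCLNP1 on the same chromosome, and which of them a probe set reads was not tested, so its level is uncertain.

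**Figure D2:**
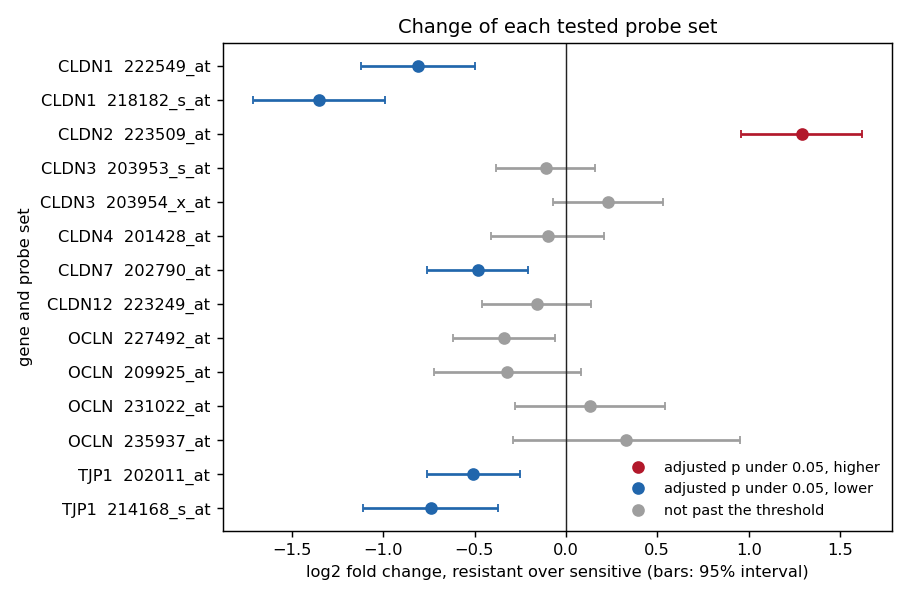
Log2 fold change, resistant over sensitive, of the 14 tested probe sets of the 8 genes, with 95% intervals from limma. Red marks the 1 higher probe set, blue the 5 lower ones and grey the 8 that did not pass, and the second probe sets of CLDN1 and TJP1 lie on the same side as the first.

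On 7 of the 14 probe sets the arrays of the 2 groups did not overlap, 1 higher and 6 lower in resistant cells, and among all tested probe sets 42.3% did not overlap. When all tested probe sets of a gene were averaged, CLDN1 was -1.08 (adjusted p = 1.8e-05), TJP1 was -0.62 (adjusted p = 0.0028) and CLDN3 was 0.06 (adjusted p = 0.77). The direction of each called gene was the same as from its brightest probe set.

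Ratios within an array remove the scaling. The log2 ratio of CLDN2 to CLDN1 was 1.51, 1.39 and 2.08 on the resistant arrays, against -0.22, -0.20 and -0.89 on the sensitive arrays. The ratio thus differed by 2.10 between the groups on the log2 scale, and all resistant arrays lay above all sensitive arrays. The ratio of CLDN2 to CLDN7 differed by 1.77 and that of CLDN2 to TJP1 by 1.79. The ratio of CLDN1 to CLDN3 differed by -0.70 and that of CLDN1 to CLDN4 by -0.71. The pairs were chosen with the calls above known, so the ratios are given as a description with no test, and they do not show which transcript was more abundant.

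**Figure D3:**
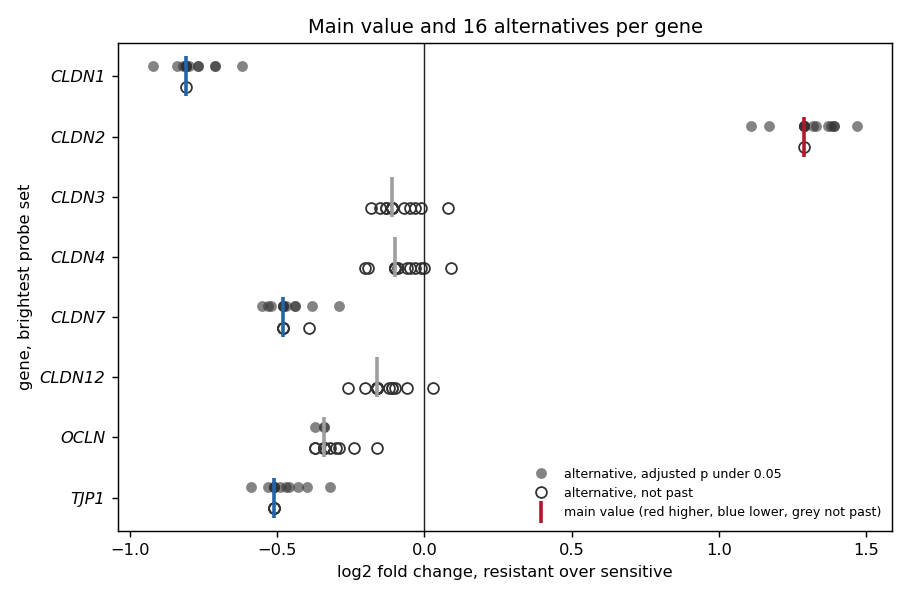
Log2 fold change, resistant over sensitive, of the brightest probe set of the 8 genes under the main setting (vertical ticks) and 16 alternatives (filled points above the line where the adjusted p is under 0.05, open points below it where it is not). CLDN2 stayed between 1.11 and 1.47 and CLDN1 between -0.92 and -0.62, and the values of CLDN3, CLDN4 and CLDN12 lay on both sides of 0.

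Other genes of the junction were called in both directions. Of 74 further genes in 4 lists, 64 had a probe set and 41 were bright enough to test. By brightest probe set 6 were higher, 6 were lower and 29 did not pass, and their median log2 fold change was -0.01. The share was 14.6% in each direction, against 11.9% higher and 21.4% lower of all genes tested. The split moved with the scaling, to 9 higher and 3 lower under quantile normalization and to 10 and 5 when arrays were divided by the median of bright probe sets. GRHL2 alone of the called genes passed in the methods' t-test with unequal variances.

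Among 18 other claudins, 14 had a probe set, 9 of these were below the filter and 5 were tested. CLDN23, a claudin of the intestine, was higher, with 3.88, 2.06 and 1.69 on the resistant arrays, against 0.901, 1.09 and 0.987 on the sensitive arrays (log2 fold change 1.27, SE 0.37, adjusted p = 0.012). These are signals near the array median, and without resistant replicate 1, the highest array, the call was lost (adjusted p = 0.11). CLDN19, a claudin of kidney and eye, was lower on its brighter probe set (-0.79, adjusted p = 0.047) and higher on its other one (1.17, adjusted p = 0.044), so no direction is given for it. CLDN9, CLDN15 and CLDN18 did not pass (0.09, -0.04 and 0.24).

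Of 12 other junction membrane proteins, 7 were tested, with 3 higher and 1 lower. These shares were 42.9% and 14.3%, against 11.9% higher and 21.4% lower of all genes tested. CXADR, the coxsackievirus and adenovirus receptor, had scaled signals of 56.5, 52.1 and 52.0 on the resistant arrays, against 81.1, 72.8 and 78.1 on the sensitive arrays. It was lower on all 4 of its tested probe sets (-0.53, -0.51, -0.70 and -0.73, adjusted p of 0.0094 or less), with no overlap on any. The higher ones were ILDR1 and LSR, angulins that mark the corners where 3 cells meet, and ESAM, an adhesion molecule first known from endothelium. Their log2 fold changes were 0.80 (adjusted p = 0.027), 0.51 (0.031) and 0.67 (0.0087). Resistant and sensitive arrays did not overlap for these 3 genes. LSR and ESAM had 1 probe set each. LSR lost its call without sensitive replicate 3 (adjusted p = 0.24) or resistant replicate 1 (0.13), and ILDR1 lost it without resistant replicate 1 or 2 or sensitive replicate 1 or 3 (adjusted p between 0.053 and 0.089). Tricellulin, encoded by MARVELD2 and placed at the same corners, did not pass on its brighter probe set (-0.33, adjusted p = 0.12) and was lower on its dimmer one (-1.19, adjusted p = 0.012). MARVELD3, of the same family as occludin, did not pass on its brightest probe set (-0.19, adjusted p = 0.47), was lower on the second (-0.86, adjusted p = 0.011) and did not pass on the third (-0.78, adjusted p = 0.052).

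Scaffolds and polarity proteins were the most even list, with 14 of 16 tested genes not past the threshold, 1 lower and 1 higher. The share was 6.25% in each direction, against 11.9% higher and 21.4% lower of all genes tested. PARD6B, a subunit of the Par polarity complex, was lower, with 18.5, 19.6 and 17.4 on the resistant arrays, against 31.9, 26.6 and 33.1 on the sensitive arrays (log2 fold change -0.72, SE 0.15, adjusted p = 0.0011). Its partners PARD3 and PRKCI, which encodes an atypical protein kinase C, had -0.01 and 0.21 by brightest probe set and did not pass, and a dimmer probe set of PARD3 was higher (0.73, adjusted p = 0.011). The ZO-1 paralogue TJP3 gave 0.10 (adjusted p = 0.78) and cingulin, encoded by CGN, gave -0.21 (adjusted p = 0.40). Paracingulin, encoded by CGNL1, was called higher (1.37, adjusted p = 0.044) from signals near the array median, but its other probe set gave 0.16 (adjusted p = 0.83), and the call was lost without resistant replicate 1 or 2 or sensitive replicate 2 (adjusted p between 0.15 and 0.18).

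Among 13 tested regulators 3 were lower and 1 was higher. These shares were 23.1% and 7.69%, against 21.4% lower and 11.9% higher of all genes tested. GRHL2, a grainyhead factor known to drive junction genes such as CLDN4 in epithelia, was lower by more than any other gene of these lists. It had scaled signals of 4.43, 4.72 and 4.05 on the resistant arrays, against 17.8, 18.5 and 17.0 on the sensitive arrays. The resistant level was 24.7% of the sensitive level (log2 fold change -2.02, SE 0.17, 95% interval -2.37 to -1.67, adjusted p = 6.6e-09), and all 16 alternatives kept the call, between -2.07 and -1.89. GRHL2 had 1 probe set, so no second probe set bears on this value. On the same arrays CLDN4 did not pass (95% interval -0.41 to 0.21), and a link of GRHL2 to CLDN4 was not tested.

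RAB13, a small GTPase of junction traffic, was higher, with 69.6, 59.1 and 43.6 on the resistant arrays, against 38.3, 34.6 and 38.3 on the sensitive arrays (log2 fold change 0.61, adjusted p = 0.005). RAB13 had 1 probe set, and its call was lost without limma's trend (adjusted p = 0.073) and in both t-tests (0.14 and 0.24). ST14, the membrane protease matriptase, was lower on both of its tested probe sets (-0.46, adjusted p = 0.041, and -0.43, adjusted p = 0.029), and 4 of the 6 fits that leave out 1 array lost the first call (resistant replicates 2 and 3 and sensitive replicates 1 and 2, adjusted p between 0.10 and 0.17). SYMPK, which encodes the RNA-processing protein symplekin, was lower on its brightest probe set (-0.70, adjusted p = 0.013) and did not pass on 2 others (0.20 and -0.37). That call was lost without resistant replicate 2, sensitive replicate 2 or sensitive replicate 3 (adjusted p between 0.057 and 0.072). EPCAM, the partner of claudin-7, had 322, 318 and 318 on the resistant arrays, against 333, 298 and 335 on the sensitive arrays (-0.01, 95% interval -0.19 to 0.17, adjusted p = 0.95). The junction repressors SNAI1, SNAI2, ZEB1 and ZEB2 were below the filter and were not tested.

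**Figure D4:**
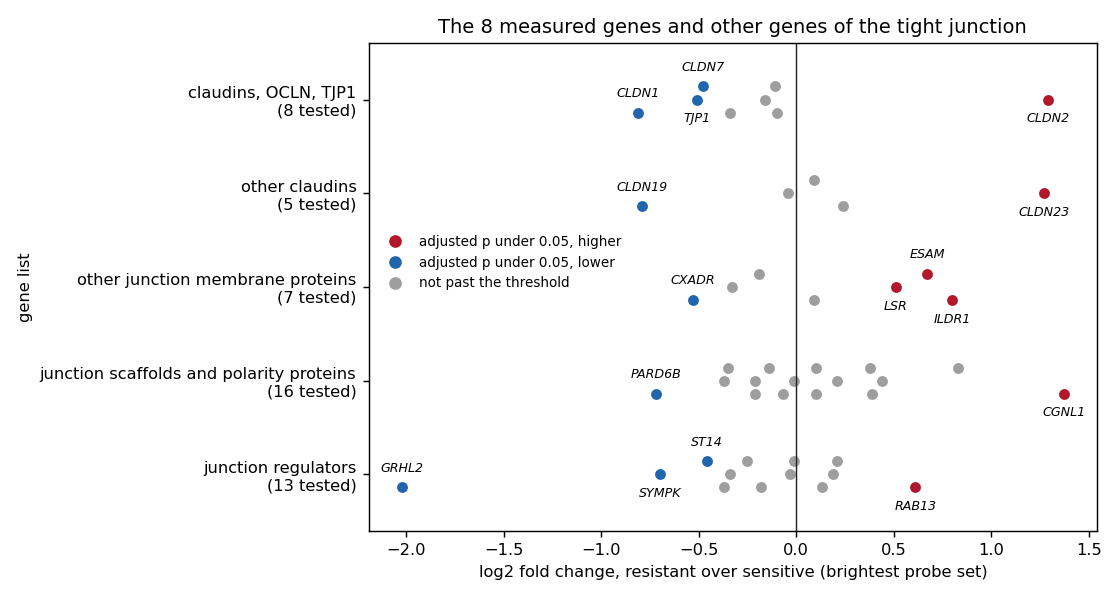
Log2 fold change, resistant over sensitive, of the 8 measured genes and of the 41 tested genes in 4 further lists of the tight junction, by brightest probe set. Red and blue points have an adjusted p under 0.05 and are named, and GRHL2 (-2.02) and CGNL1 (1.37) are the lowest and the highest.

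Neighbouring genes were read as well, taking the 5 nearest measured genes on either side in RefSeq order, and their counts stand against 11.9% higher and 21.4% lower of all genes. Of the 10 around CLDN2, 3 were higher and 1 was lower. The higher ones were TBC1D8B, MORC4 and RBM41 (0.57, 0.85 and 0.78), the nearest on each side and the next beyond MORC4. Around CLDN1, 3 of 10 were higher and 2 were lower, around CLDN7 none was higher and 3 were lower, and around OCLN none of 10 passed. TJP1 had 3 lower neighbours of 10, with the nearest, NSMCE3, at -0.95 (adjusted p = 0.0034).

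CLDN23 and LSR lay among genes that were mostly higher, 6 of 10 each (medians 1.08 and 0.68). FXYD3, near LSR, had 2.86. GRHL2 lay among genes of which 7 of 10 were lower and none was higher (median -0.50). The other called genes of the further lists varied. CGNL1 and ILDR1, called higher, had no higher neighbour and 5 and 4 lower ones of 10. ESAM, also called higher, had 3 higher and 1 lower. PARD6B, called lower, had 4 lower and none higher, and CXADR had 3 lower and 1 higher of 9. ST14 had 1 of each, and none of 10 passed around CLDN19, RAB13 or SYMPK. The part that location has in the values of these genes was not tested.

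Most colon epithelial markers of the labelled cells were bright enough to test, and most of these moved in the direction of CLDN1, CLDN7 and TJP1. Of 10 such markers, 8 were tested, of which 1 was higher and 6 were lower (median log2 fold change -0.54). These shares were 12.5% and 75.0%, against 11.9% higher and 21.4% lower of all genes tested, whose median was -0.1. The summed scaled signal of the 10 markers was 1280 to 1480 on the resistant arrays, against 1740 to 1940 on the sensitive arrays. KRT18 and KRT8 had the largest signals in this sum. Their means were 644 and 235 in resistant cells, against 714 and 396 in sensitive cells, so the sum mostly reflects few genes. KRT8 was -0.77 and KRT20 was -0.60, KRT18 did not pass at -0.15, and CDX1 and GPA33 were below the filter. The higher marker was CDH17 (log2 fold change 1.2, adjusted p = 0.036). Its signals, small beside the sum, were 2.91, 1.92 and 2.15 on the resistant arrays, against 1.82, 0.48 and 1.14 on the sensitive arrays. In bulk RNA, fewer cells of a type and less RNA per cell cannot be told apart. Of 8 fibroblast markers 7 were below the filter, and the list summed to 13.3 to 17.1 on the resistant arrays, against 5.66 to 6.64 on the sensitive arrays. The tested one, COL1A1, had 14.6, 9.46 and 11.4 on the resistant arrays, against 0.465, 0.867 and 0.89 on the sensitive arrays (log2 fold change 4.03, adjusted p = 1.4e-10). A dimmer COL1A1 probe set was also higher (1.54), and 2 others did not pass (0.15 and 0.07). The higher sum of the list came from COL1A1. LUM, below the filter, ran the other way. It had 0.278, 0.025 and 0.0769 on the resistant arrays, against 1.51, 1.57 and 1.81 on the sensitive arrays. The leukocyte list summed to 2.72 to 4.67 on the resistant arrays, against 4.14 to 6.13 on the sensitive arrays, and its CD14 was lower (-2.81, adjusted p = 0.0041). The endothelial list summed to 3.33 to 3.54 on the resistant arrays, against 2.6 to 3.28 on the sensitive arrays. The 3′ to 5′ ratio of the ACTB control was 1.30, 1.29 and 1.17 on the resistant arrays, against 1.14, 1.12 and 1.17 on the sensitive arrays (exact permutation p = 0.1, two-sided, the smallest that 3 against 3 arrays allow). That of GAPDH was 0.98, 1.04 and 1.04 on the resistant arrays, against 1.01, 1.01 and 1.00 on the sensitive arrays (exact permutation p = 0.4). The part of these differences in the values of the junction genes was not tested.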

How the data were processed

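MAS5 signals, as deposited by the authors, are a linear intensity per probe set of the Affymetrix HG U133 Plus 2.0 array, for 3 resistant and 3 sensitive samples, grouped by the labels. The MAS5 version and the genome build are not given in the sources used here. Their later steps in GeneSpring are not in these values. Array medians were 13.3, 16.0 and 16.9 in resistant cells and 14.2, 15.0 and 15.4 in sensitive cells. The number of arrays limits the precision.

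Of 54675 probe sets, 62 controls were left out. The platform annotation gave 1 gene to 41091, several to 1801 and none to 11721, and 41037 were matched to RefSeq symbols through Entrez identifiers. Signals were divided by the array median, floored at 0.01 and log2 transformed. The 26833 probe sets whose scaled signal averaged 1 or more were fitted in limma 3.58.1 under R 4.3.3 (lmFit, eBayes with a trend), with Benjamini-Hochberg adjustment over all of them. A call needed an adjusted p under 0.05. A gene was read from its brightest probe set. The procedure was tested on simulated data. Exact permutation tests used scipy 1.17.1 and figures matplotlib 3.10.9.

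The genes and lists were chosen with earlier results of these data known. All 9 genes are named, with up to 4 called genes per further list by size of change. Other genes (those not past the threshold, neighbours and second probe sets) were named after their values were seen. Alternatives covered scaling, floor, filter, test, replicate block, each array left out, probe set choice and the fold threshold. The methods' t-test is a t-test of the kind the study names, run on these log2 values with the filter used here. The study's own filter and per-gene normalization were not repeated. Whether its test assumed equal variances is not stated in the sources used here. Scan dates and batches were not used here.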

Additional observations from a re-analysis of the deposited data

How the results depend on the processing

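Of the 6 called probe sets of the 8 genes, 5 lost the call under at least 1 alternative, each in a t-test, and the values are given with the genes. The brighter CLDN3 probe set reversed to 0.08, CLDN4 to 0.09 and CLDN12 to 0.03 under quantile normalization, and CLDN4 came to 0.00 when arrays were divided by the median of bright probe sets (those past the filter). None of these 4 values passed. Over all tested probe sets the median log2 fold change was -0.12, and -0.02 under both of those scalings.

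Counts are given as higher and lower in resistant cells. The main counts were 2554 and 5237 of all probe sets, 1 and 5 of the 14 claudin, OCLN and TJP1 probe sets, 1 and 3 of their 8 genes, and 6 and 6 of the other junction genes. With no variance trend 3366 probe sets were lower, with 3 of the 14 and 1 of the 8 genes lower and 3 higher and 3 lower other junction genes. Division by the median of bright probe sets gave 3878 and 4668 probe sets and 10 and 5 other junction genes. With no filter 2 other junction genes were higher and 4 lower. Quantile normalization gave 4189 and 4324 probe sets, 2 and 5 of the 14, and 9 and 3 other junction genes. The methods' t-test with equal variances gave 826 and 1879 probe sets, 3 lower of the 14, and 0 and 3 other junction genes. With unequal variances it gave 81 and 136 probe sets, 0 and 1 of the 14, 0 and 0 of the 8 genes, and 0 and 1 other junction genes. A 3-fold threshold left 418 and 509 probe sets, none of the 8 genes in either direction (0 and 0) and 0 and 1 other junction genes.

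Leaving out 1 array at a time gave 1917 to 2513 higher and 3774 to 6498 lower probe sets, 1 to 1 and 4 to 6 of the 14, 1 to 1 and 2 to 4 of the 8 genes, and 2 to 8 and 3 to 7 other junction genes. The 2 came without resistant replicate 1 and the 3 without sensitive replicate 2. The cause of these shifts was not tested. Same-numbered samples of the groups correlated by 0.007 to 0.141 in their deviations from the group means, and differently numbered ones by -0.114 to 0.033. These values do not settle whether the numbers pair the samples. With the replicate block 3076 and 6400 probe sets, 1 and 6 of the 14, 1 and 4 of the 8 genes (OCLN passing at an adjusted p of 0.024), and 8 and 6 other junction genes were called.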
